A study of Macaca fascicularis with 80 samples.

Results

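The 100 genes described here had a higher average level in macaque whole blood than before dosing on each of 9 later days, through days 1, 3, 4, 7, 8, 10, 14, 17 and 21. They were chosen from their levels in the same libraries. Counts were scaled to CPM (counts per M counts of the library, where M is mega), and the 9939 of 38550 genes with a mean of at least 5 CPM over the 80 libraries were kept. The level of a gene was log2(CPM + 1) minus the median of that value over all kept genes in the same library. A gene passed when its mean level over 8 animals exceeded the day 0 mean by more than 0.15 (log2) on each of the 9 days. In all 235 genes passed, and the 100 with the largest smallest change were taken. The hundredth had a smallest change of 0.223 and the next gene one of 0.222, while at the threshold itself the last gene inside stood at 0.1507 and the first outside at 0.1499. By the same threshold in the other direction, 191 genes were below day 0 on all 9 days. All 9 changes share the 8 day 0 libraries, so a low value at baseline enters each of them, and the size and order of these changes are therefore described with no test.

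The animals were 8 cynomolgus macaques, 4 females (39090, 39095, 39097 and 39098) and 4 males (39100, 39102, 39103 and 39104), each bled on 10 days into PAXgene tubes, which stabilise RNA in whole blood. Every animal received IL-15/IL-15Ra, interleukin 15 complexed with its receptor alpha chain, in 3 rising doses of 5, 10 and 15 µg/kg, given on days 0, 3 and 7. Day 0 samples are labelled as controls with a dose of 0, days 1 and 3 carry 5 µg/kg, days 4 and 7 carry 10 µg/kg, and days 8 to 21 carry 15 µg/kg. The same animals thus form all groups, no undosed animals were analysed, and the labels give neither age nor strain. Dose, order of dosing, number of bleeds and elapsed time rise together and cannot be told apart.

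Interleukin 15 is a cytokine that is presented by its alpha chain to cells carrying the receptor beta chain and the common gamma chain. It supports the survival and division of natural killer cells and memory CD8 T cells. Blood collected whole also holds RNA of neutrophils, monocytes, B cells, platelets and young red cells. In such bulk RNA, more cells of a type and more RNA per cell cannot be told apart.

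The files pair the gene identifiers with no symbols, and 0 of the 38550 identifiers were found in the RefSeq gene table of assembly T2T-MFA8v1.1. The products of the members, their pathways and the blood cell types that express them are thus not given. Gene lists and cell type markers could not be applied, the labelled tissue was not checked against markers, and 4 members are printed by identifier. CPM values are not divided by gene length, so levels are compared between samples of 1 gene and not between genes.

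Libraries held 17.1 to 80.2 M counts, with a median of 24.3 M and 8 above 40 M. The column names of 71 libraries share a tag. In 8 the tag ends in GL08 in place of runGL07, and these are 3 males on day 10 and the 4 females and 1 male on day 14. In 1, a female on day 7, the tag holds Lib3 in place of lib2. What the parts of the tag stand for is not stated. The day 4 library of male 39102 stood farthest from the others, with a root mean square deviation of 0.967 against a median of 0.452 over libraries. Without it 237 genes passed and all 100 members were among them.

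The members were not high at a constant level. Their median change from day 0 was 0.35 (log2) on day 1, the day after the first dose, 0.39 on day 3 and 0.54 on day 4. It was 0.48 on day 7, 0.58 on day 8 and 0.65 on day 10, and it was highest at 0.78 on day 14, the seventh day after the last dose. By day 17 it stood at 0.50, and on day 21 it was 0.46. As ratios these medians run from 1.27 on day 1 to 1.72 on day 14 and 1.38 on day 21. By the same measure the median over all 9939 kept genes lay between -0.02 and 0.00 on all 9 days.

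The spread among members was wider on day 14 than on day 1. On day 1 the middle 50 members lay between 0.27 and 0.50 and 1 member exceeded a doubling. On day 14 they lay between 0.55 and 1.22, and 31 members exceeded a doubling, against 18 on each of days 8 and 10 and 19 on day 21. The largest change of any member was 3.13, on day 8. Few members were raised strongly throughout, since 4 had every change above 0.5 and 0 had every change above 1. The mean of the 9 changes ran from 0.32 to 1.59 with a median of 0.55.

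Members were put into 3 sets by the day of their largest change. Day 14 was the highest for 50 of the 100, day 10 for 19, day 21 for 13 and day 7 for 7. Days 4 and 8 were highest for 4 each, day 17 for 2, day 3 for 1 and day 1 for 0. The lowest of the 9 changes was that of day 1 in 44 members, of day 7 in 16 and of day 21 in 12. The 69 members highest on day 10 or 14 had medians of 0.30 on day 1, 0.81 on day 14 and 0.44 on day 21. For the 16 members highest between days 1 and 8 the medians were flatter, at 0.40 on day 1, 0.69 on day 4 and 0.42 on day 21. The 15 members highest on day 17 or 21 had a median of 0.29 on day 7, 0.92 on day 14 and 1.10 on day 21. These sets were formed from the changes themselves and are descriptions.

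**Figure D1:**
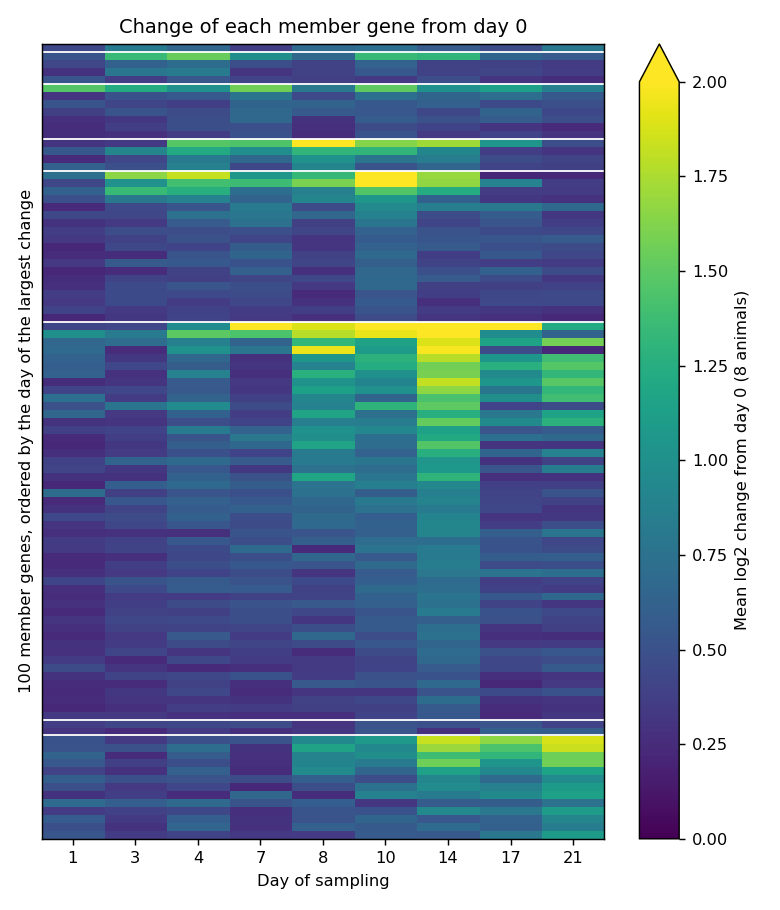
Mean change in centred log2 level from day 0 of the 100 members (horizontal lines of colour, ordered by the day of their largest change) on the 9 later days (columns), each the mean of 8 animals. White lines separate the days of largest change and the colour scale ends at 2, so larger changes share 1 colour. All cells are above 0, as the choice of members requires, and 50 members have their largest value in the day 14 column.

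Members' counts made up a small share of each library. On day 0 they held 0.748% ± 0.309 of all counts (SD, n = 8), on day 10 they held 1.24% ± 0.476 and on day 21 they held 1.47% ± 0.480. Without the most abundant member the shares were 0.477% ± 0.159 on day 0 and 0.964% ± 0.275 on day 21. Mean levels of single members ran from 5.40 to 3838 CPM with a median of 27.8, and 19 members were below 10 CPM while 17 were above 100.

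The scale of the values moved some of these sizes. Without centring, the median of all kept genes shifted from day 0 by -0.13 on day 4, -0.28 on day 8 and -0.26 on day 14, and by 0.10 on day 17 and 0.08 on day 21. The members' uncentred median changes were 0.43, 0.30 and 0.53 on days 4, 8 and 14. On day 8, 93 members were above day 0 without centring, and on each of the other 8 days all 100 were. All sizes given here are relative to the median gene. When the rule was applied without centring, 153 genes passed, 64 of the members among them.

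In single animals the members' median change was above 0 on every day. On day 1 the animal medians ran from 0.14 in female 39097 to 0.54 in male 39100, with a middle value of 0.34. The widest range was that of day 8, from 0.21 in male 39104 to 1.05 in female 39098, with a middle value of 0.49. Day 14 had the narrowest range, from 0.63 in female 39095 to 0.86 in male 39100, with a middle value of 0.71. Female 39090 had the lowest animal median on days 3, 4, 17 and 21, at 0.21, 0.34, 0.16 and 0.33, and male 39103 had the highest on days 3, 4, 7 and 21, at 0.57, 0.82, 0.81 and 0.85. The lowest animal median of all was 0.11, in female 39095 on day 7, in the library whose tag no other shares.

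Each member gives 72 comparisons of an animal on a later day with its own day 0. Members were above day 0 in 53 to 72 of these, with a median of 63, against a median of 35 for all kept genes. The rule averaged these same comparisons, so higher counts in members follow from the choice and are a description. Of the members 3 were above in all 72, among 4 such genes in the whole set kept, and 49 were above in at least 64. All 8 animals were above their own baseline in 26 members on day 1 and in 42 on day 3. Days 10 and 14 had 63 and 57 such members and day 17 had 21. Every member was above in at least 4 of the 8 animals on every day. For all kept genes the matching shares were not counted. As the rule averaged these same animals, these counts per day are a description too. The SD between animals at day 0 had a median of 0.41 (log2) over the members and of 0.25 over all kept genes.

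Tags and depth varied with the day, and their part in the members' levels was not tested. On day 10 the animal medians had a middle value of 0.75 in the 5 libraries with the common tag, 4 of them female. It was 0.49 in the 3 male libraries with the GL08 tag. On day 14 the middle value was 0.70 in the 3 male libraries with the common tag and 0.80 in the other 5, 4 of them female. On day 8 the 3 libraries above 40 M counts, all male, had a middle value of 0.52 and the other 5 had one of 0.46, and on day 10 the 4 deeper libraries had 0.78 and the other 4 had 0.61. With libraries of the common tag alone 210 genes passed the rule, with 87 of the members.

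To measure the same rule in animals it had not used, genes were chosen in 7 animals and their change was read in the animal left out, for each of the 8 animals in turn. The mean of the 8 left-out medians was 0.27 ± 0.14 (SD, n = 8) on day 1, and on days 3 and 4 it was 0.33 ± 0.10 and 0.45 ± 0.20. On days 7 and 8 it was 0.35 ± 0.19 and 0.41 ± 0.28, and on days 10 and 14 it was 0.59 ± 0.19 and 0.65 ± 0.08. On days 17 and 21 it was 0.45 ± 0.23 and 0.43 ± 0.19. In the choosing animals the same lists had higher medians on each day, such as 0.36 on day 1, 0.58 on day 8 and 0.77 on day 14, while all kept genes in the left-out animal averaged -0.01 on each of those 3 days.

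The left-out median was above 0 in 8 of 8 animals on 7 of the days. The exceptions were -0.01 in female 39095 on day 7 and -0.01 in male 39104 on day 8. The 8 lists each held 100 genes and shared 73 to 84 of them with the members, so the 8 values are not independent of each other. Of the 100 genes of a list, 31 to 63 were above day 0 on all 9 days in the left-out animal. The matching share of all kept genes was not counted, and the 9 changes of an animal share its day 0 library. On single days, 48.2% (day 4) to 49.4% (day 17) of kept genes were above on average.

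**Figure D2:**
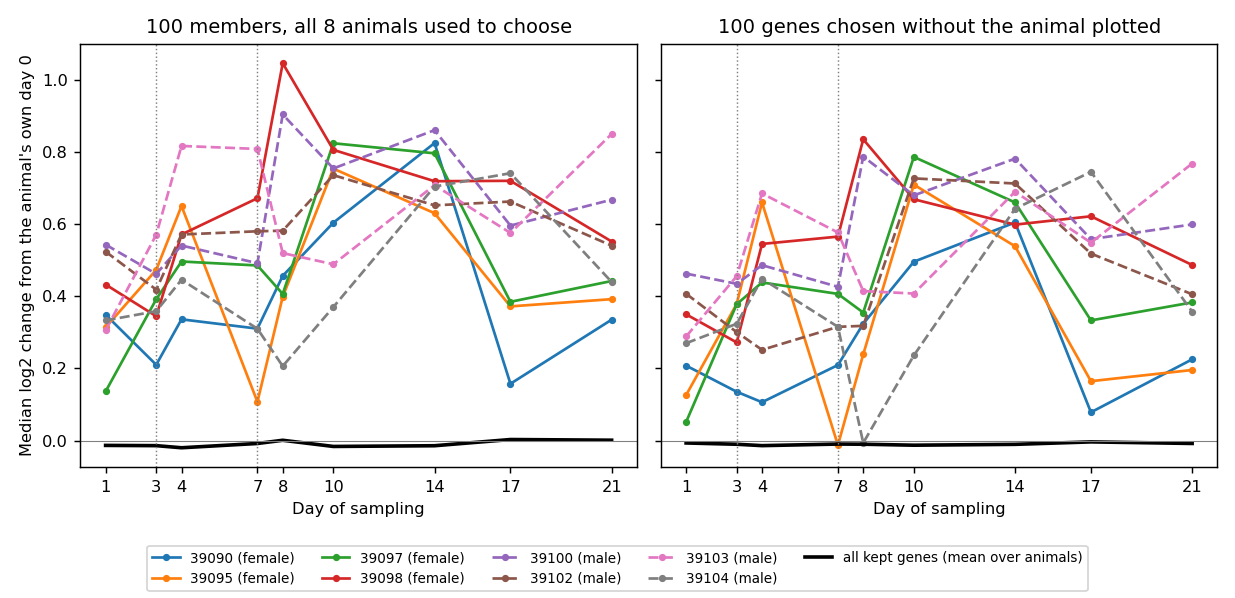
Median log2 change from the animal's own day 0 (vertical axis) on each later day (horizontal axis) for each female (solid lines) and male (dashed lines), left for the 100 members and right for the 100 genes chosen without the animal plotted, with dotted lines at the dosing days 3 and 7 and a black line for all kept genes. On the left all 72 values lie between 0.11 and 1.05, and on the right 2 lie at -0.01.

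ENSMFAG00000044266 had the largest smallest change of all members, 0.81 on day 8. Its day 0 values ran from 5.22 CPM in male 39103 to 57.7 CPM in male 39100, with a median of 7.39 CPM over the 8 animals. On day 1 they ran from 8.99 to 158 CPM with a median of 26.5 CPM, which is a mean change of 1.47 in log2 level with 8 of 8 animals above their own day 0. On day 7 the lowest value was 14.6 CPM, the median 40.3 CPM and the highest 110 CPM, a mean change of 1.57 with 7 of 8 animals above. Male 39100 was the highest animal on day 0 and on 7 of the later days, and the range of each later day overlapped that of day 0.

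On day 10 ENSMFAG00000044266 ran from 9.09 to 103 CPM with a median of 38.4 CPM, and its mean change was 1.5 in 8 of 8 animals. On day 14 it ran from 4.83 to 96.7 CPM with a median of 20.9 CPM and a mean change of 1.01. On day 21 it ran from 9.53 to 129 CPM with a median of 20.1 CPM and a mean change of 0.86. The changes of days 3, 4, 8 and 17 were 1.23, 1.00, 0.81 and 1.13. The changes thus follow no steady order in time. None of the 8 steps between consecutive later days passed the test, the smallest adjusted p being 0.23 for day 14 against day 10 (edgeR quasi-likelihood test with Benjamini-Hochberg adjustment).

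The same gene was nearly absent from 3 male libraries. ENSMFAG00000044266 was at 0 counts in animal 39102 on day 4, which allows up to 0.117 CPM at that depth (3 counts, counting error only), at 0.231 CPM in animal 39104 on day 8 and at 0.478 CPM in animal 39102 on day 8. In those 3 libraries ENSMFAG00000038721 stood at 154, 91.5 and 108 CPM, its 3 highest values among the 80 libraries. Without the day 4 library of animal 39102 the day 4 change of ENSMFAG00000044266 was 1.58 and that of ENSMFAG00000038721 was 0.39, in place of 1.00 and 1.02.

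ENSMFAG00000040130 had the second largest smallest change, 0.64 on day 7. Its day 0 values ran from 23.2 CPM in male 39103 to 122 CPM in female 39097, with a median of 36.4 CPM. On day 1 the lowest, median and highest values were 36.4, 76.7 and 137 CPM, and on day 7 they were 34.3, 60.6 and 256 CPM. Most of the range at each time lay between animals, and all days overlapped day 0. On day 8 the gene ran from 33 to 495 CPM with a median of 106 CPM, and on day 14 from 43.6 to 670 CPM with a median of 135 CPM. On day 21 the values were 46.8 to 284 CPM with a median of 176 CPM. Female 39098 was the highest animal on 7 of the 9 later days.

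The mean changes of ENSMFAG00000040130 from day 0 were 0.66, 0.72, 0.88 and 0.64 on days 1, 3, 4 and 7. Days 8, 10 and 14 had changes of 1.33, 1.15 and 1.89, and days 17 and 21 had 1.16 and 1.58. All 8 animals were above their own day 0 on 7 days and 7 of 8 on days 1 and 17. From day 7 to day 8, across the third dose, the gene rose by 0.72 (log2, SE 0.17) in 7 of 8 animals, with an adjusted p of 0.029 in edgeR's quasi-likelihood test. That call was lost without the animal block (adjusted p of 0.34), with library totals for scaling (0.11) and without animal 39090, 39095, 39098, 39100 or 39102 (0.055 to 0.072). Its differences for day 14 against day 10, 0.75 (SE 0.29, adjusted p of 0.16 in edgeR), and for day 17 against day 14, -0.74 (SE 0.29, adjusted p of 0.093 in edgeR), did not pass.

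ENSMFAG00000055348 was above the animal's own day 0 in all 72 comparisons, 1 of the 3 members for which this held. Its day 0 values were low, from 1.06 CPM in male 39103 to 7.14 CPM in female 39098, with a median of 1.87 CPM. On day 1 it ran from 1.46 to 13.4 CPM with a median of 5.89 CPM, and on day 4 from 3.01 to 24.1 CPM with a median of 6.90 CPM. On day 8 it ran from 2.11 to 35.5 CPM with a median of 6.17 CPM. The order of the animals changed, since female 39098 was highest on days 0 and 1 and male 39102 on days 4 and 8. On day 10, where the lowest animal was at 6.61 CPM, the median was 10.7 CPM and the highest 20.3 CPM, and 7 of 8 animals were above the whole day 0 range. On day 14 the values ran from 3.04 to 38.5 CPM with a median of 12 CPM.

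The mean changes of ENSMFAG00000055348 were 1.00, 0.83, 1.5 and 1.44 on days 1, 3, 4 and 7, and 1.79, 1.94 and 2.22 on days 8, 10 and 14. On days 17 and 21 they were 0.97 and 0.64. On day 17 the gene ran from 2.45 to 15.7 CPM with a median of 5.42 CPM, and on day 21 from 2.02 to 12.2 CPM with a median of 4.46 CPM. From day 14 to day 17 it fell by 1.33 (log2, SE 0.40) and was lower in 8 of 8 animals, with an adjusted p of 0.041 in edgeR's quasi-likelihood test. The call was lost without the animal block (adjusted p of 0.084), in the 3 animals with the common tag on both days (0.062) and without animal 39090, 39097, 39098, 39102 or 39103 (0.050 to 0.11).

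ENSMFAG00000038721 was the member with the largest called fall at any step. Its day 0 values ran from 1.44 CPM in male 39104 to 16.4 CPM in female 39098 with a median of 4.23 CPM. On day 8 they ran from 1.38 to 108 CPM with a median of 10.4 CPM. The highest 3 animals were males 39102, 39104 and 39103, whose libraries are the 3 of that day above 40 M counts. The remaining male, 39100, was at 6.14 CPM, and the part of depth was not tested. On day 14 the values ran from 3.95 to 48 CPM with a median of 19.99 CPM. On day 17 the lowest, median and highest values were 2.73, 6.60 and 19.4 CPM, and on day 21 they were 3.01, 4.53 and 24.6 CPM. The last of these medians lay close to that of day 0, and the ranges of the 2 days overlapped.

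Its mean changes were 0.68, 0.25, 1.02, 0.78, 1.94, 1.11, 1.98, 0.47 and 0.23 on the 9 later days in order of time, and 5 of 8 animals were above their own day 0 on days 3 and 21. Between days 14 and 17 ENSMFAG00000038721 fell by 1.60 (log2, SE 0.46) and was lower in 8 of 8 animals, with an adjusted p of 0.036 in edgeR's quasi-likelihood test. The call was lost in the 3 animals with the common tag on both days (adjusted p of 0.097) and without animal 39090, 39097, 39102 or 39103 (0.054 to 0.097).

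**Figure D3:**
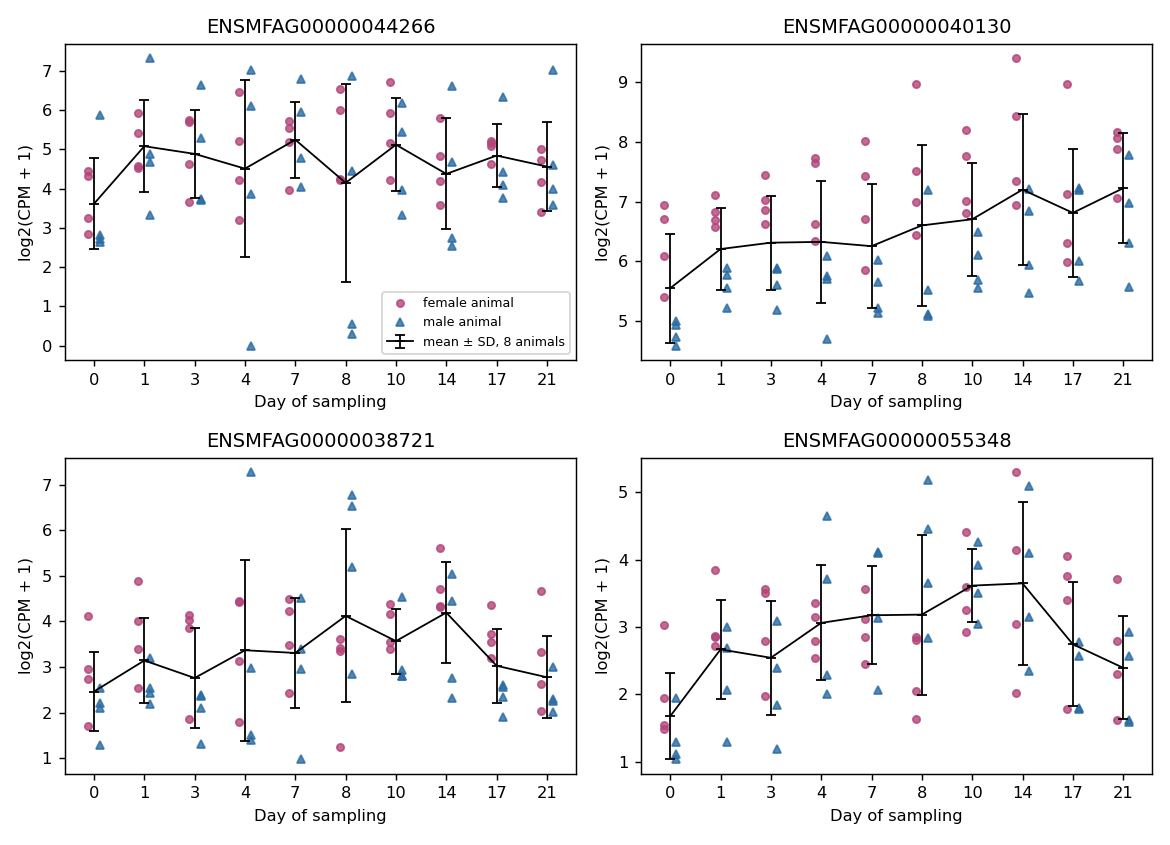
Level of the 4 members printed by identifier, as log2(CPM + 1) on the vertical axis, in each animal on each of the 10 days on the horizontal axis, with circles for 4 females, triangles for 4 males and the line giving the mean ± SD of 8 animals. ENSMFAG00000044266 is at 0 in 1 male on day 4 and under 1 CPM in 2 males on day 8, and ENSMFAG00000040130 on day 0 is at 41.5 CPM or more in the 4 females and at 31.2 CPM or less in the 4 males.

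The choice of members used their changes from day 0 and no difference between later days, so the 8 steps between later days were tested. Both days of a step still entered the rule through their own changes from day 0, so the steps are not free of the choice. Each step was fitted within animals with edgeR's quasi-likelihood test over 16054 genes, among which all 100 members were tested, and a gene is called changed at a Benjamini-Hochberg adjusted p under 0.05. Among the 16054 are also genes below the mean of 5 CPM that members had to reach. Shares over all genes tested are thus not matched to the members in level. Neighbouring steps share the 8 libraries of the day between them. Of the members 33 were called at 1 or more steps, 4 at 2 or more and 67 at none. The matching shares of all genes were not counted.

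The step with the most called members was that from day 14 to day 17. Here 23 members fell and 0 rose, while of all genes tested 10.8% fell and 9.23% rose. The members' median difference was -0.27 (log2) and 81 of the 100 were lower on day 17, against a median of 0.06 over all genes. By animal, the members' median difference ran from -0.61 to 0.02 and was below 0 in 7 of 8. The 23 called members had differences from -1.60 to -0.34 with a median of -0.57, values that the call itself selects. Their median change from day 0, which the rule used, was 0.71 and 0.92 on days 10 and 14, and 0.41 and 0.38 on days 17 and 21. Of the 23, 21 had their largest change from day 0 on day 14, against 50 of all 100 members. A call for a fall from day 14 favours genes that are high on day 14, so this is a description.

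The count of 23 members called lower depended on animals and on scaling. It was 0 without male 39102 or male 39103, 1 without female 39090 and 5 without female 39097. Of all genes tested, 1735 were called lower on day 17 with all 8 animals, and 0, 0, 75 and 508 without 39102, 39103, 39090 and 39097. Without the animal block 11 members were called lower with 7.91% of all genes, and with DESeq2 35 were called lower with 16.4% of all genes. With library totals in place of trimmed mean of M-values (TMM) scaling, the median of all genes moved to 0.43 and that of the members to 0.09, and 5 members were called higher and 6 lower, with 32.7% and 4.36% of all genes. Of the day 14 libraries 5 carry the GL08 tag. In the 3 males with the common tag on both days 5 members were called lower, which is near the 4.8% of all genes called lower in that fit.

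Around the third dose, from day 7 to day 8, 7 members rose and 1 fell, with 6.01% and 7.77% of all genes called higher and lower. The share of members that rose was thus near that of all genes in this fit. The members' median difference was 0.08, with -0.06 over all genes. No member was called without animal 39095, 39098 or 39100. Of all genes those fits called 0.081%, 0.149% and 0.978% higher, and 0.816%, 1.2% and 2.83% lower. Without 39090 or 39102, 1 member was called higher, with 0.804% and 0.399% of all genes. Without 39103, 12 members were called higher and 1 lower, with 8.14% and 8.95% of all genes. DESeq2 called 15 higher and 1 lower, and 15.7% and 12.6% of all genes, so its share of members that rose was near that of all genes too. In the 4 animals with no library above 40 M counts on either day 36 members were called higher and 0 lower, with 11.4% and 6.89% of all genes. Library totals gave 2 higher and 7 lower, with 3.75% and 25.7% of all genes, and the members' median turned to -0.29 with that of all genes at -0.43.

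Around the second dose, from day 3 to day 4, 0 members were called by edgeR, with 0% of all genes called higher and 0.181% lower. At an unadjusted p under 0.05 there were 6 members, against 10.97% of all genes. DESeq2 called 1 member higher, with 0.218% of all genes higher and 1.31% lower. Without animal 39102 edgeR called 2 members higher, with 0.255% of all genes higher and 0.885% lower. In the edgeR fit with all animals 86 of 100 members had a positive difference, against 47.8% of all genes. The members' median was 0.12, with -0.01 over all genes. The sign depended on the scaling, since with library totals 38 members were positive, against 26.2% of all genes. Their median was then -0.04, with -0.18 over all genes. Under both scalings the members' median was above that of all genes. Scaling shifts all genes of a library alike, so this order was largely bound to stay.

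The other steps held few calls among the members. From day 1 to day 3, 5 members rose and 0 fell, with 3.32% of all genes higher and 2.7% lower. The 5 differences ran from 0.37 to 1.00, and 3 to 6 members were called higher as single animals were left out, with 3 without 39100, 39102 or 39103. In those fits 0.959% to 5.33% of all genes were called higher. Members were also called lower in some fits, 4 without 39097, 2 without 39090 and 4 with DESeq2, which called 7 higher. Of all genes 3.54% were called lower without 39097 and 5.91% without 39090. DESeq2 called 5.41% of all genes higher and 5.98% lower. From day 4 to day 7, 2 members fell and 0 rose, with 0.885% of all genes lower and 2.19% higher. The count was 0 without animal 39090, 39095, 39100 or 39104 and 1 without 39097 or 39098. In the fits without 39097 and 39098, 0.529% and 0.723% of all genes were called lower. In the fits with a count of 0, 0.181% (without 39100) to 0.405% (without 39104) of all genes were called lower.

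From day 8 to day 10, 1 member rose and 0 fell, with 5.64% of all genes higher and 5.51% lower. With library totals, under which the median of all genes was 0.31, 25 members and 15.6% of all genes were called higher. The count was 0 without animal 39090, 39095, 39097, 39098, 39100 or 39104. In those fits 0.355% (without 39095) to 8.05% (without 39097) of all genes were called higher, and 0.131% to 8.14% lower. The count was 3 without 39103, where 4.97% of all genes were called higher. From day 10 to day 14, 0 members were called, with 0.891% of all genes higher and 0.99% lower, although 27 members had an unadjusted p under 0.05 against 21.9% of all genes. DESeq2 called 11 members higher at this step, with 7.14% of all genes. Without animal 39097 edgeR called 9 higher and 1 lower, with 2.24% and 2.09% of all genes. Without 39095 it called 1 higher, with 1.49% of all genes. From day 17 to day 21, 0 members and 0% of all genes were called, with 2 members at an unadjusted p under 0.05 against 4.25% of all genes. DESeq2 called 1 member lower at this step, with 0.0498% of all genes.

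**Figure D4:**
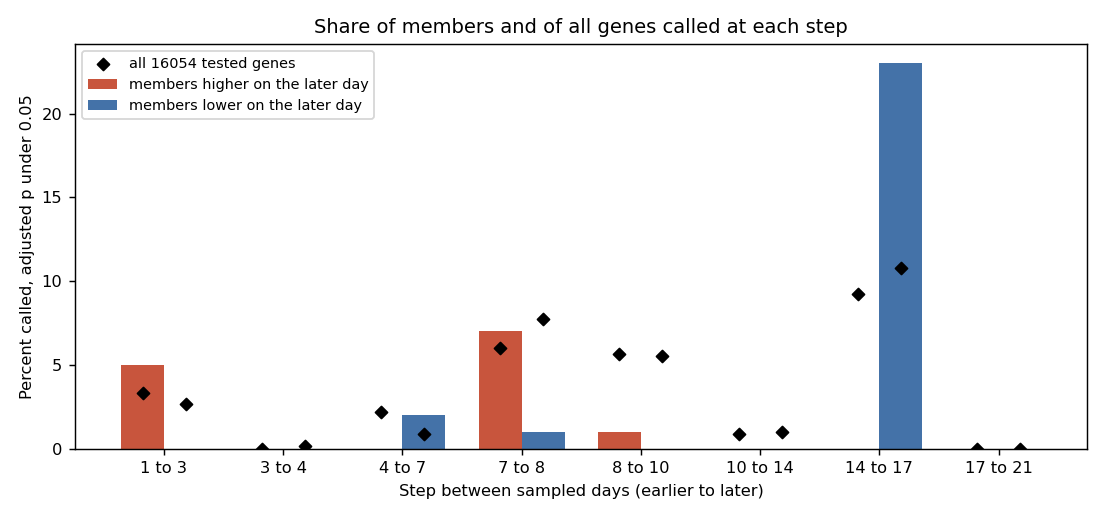
Percent of the 100 members called higher (red bars) and lower (blue bars) on the later day at each step between consecutive sampled days after baseline, at an adjusted p under 0.05, with diamonds for the percent of all 16054 tested genes called in the same direction. The bar for members lower from day 14 to day 17 reaches 23 with its diamond at 10.8.

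Since the rule averaged over both sexes, the difference between females and males was not fixed by it. At day 0, 0 members were called different between 4 females and 4 males by edgeR, where the smallest adjusted p was 0.082 and 0.0125% of all genes were called higher in females and 0.0747% lower. At an unadjusted p under 0.05 there were 24 members, 23 of them higher in females, against 6.25% of all genes. DESeq2 called 10 members and 0.61% of all genes higher in females, and 0 members lower. The members' median female minus male difference was 0.19 (log2), with 0.00 over all genes.

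Some members did not overlap between the sexes. At day 0 all 4 females were above all 4 males in 14 members and all males above all females in 1, while in the 9939 kept genes the shares were 1.37% and 1.88%. An example was ENSMFAG00000040130, at 41.5 to 122 CPM in females and 23.2 to 31.2 CPM in males. Its mean was 83.6 ± 36.3 CPM in females and 27.4 ± 3.66 CPM in males (SD, n = 4), a log2 difference of 1.72 (SE 0.31, adjusted p of 0.20 in edgeR's quasi-likelihood test) that did not pass over all genes.

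The same order was seen on later days in part of these genes. All females were above all males in 12, 8, 9 and 10 members on days 1, 3, 4 and 7. The corresponding shares of all kept genes were 2.17%, 3.17%, 1.57% and 1.67%. On days 8, 10 and 14 there were 9, 13 and 8 such members, with 2.5%, 2.52% and 1.18% of all kept genes. On day 17 there were 2 and on day 21 there were 3, with 2.35% and 5.53%, which is near or below the share of all genes.

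In the opposite order, all males were above all females in 1 member on days 1, 4 and 7, with 2.32%, 1.45% and 1.81% of all kept genes. On day 8 there were 5 such members and on day 21 there were 5, with 2.84% and 5.47%. On days 3, 10, 14 and 17 there were 0, with 3.33%, 2.06%, 0.986% and 2.97%. Of the 14 members separated at day 0, 10 were separated again on day 1, 10 on day 10 and 2 on day 21, and 1 on no later day. On each of days 10 and 14 the tag of the libraries goes with sex for 7 of the 8 animals, and its part in the separation was not tested.

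**Figure D5:**
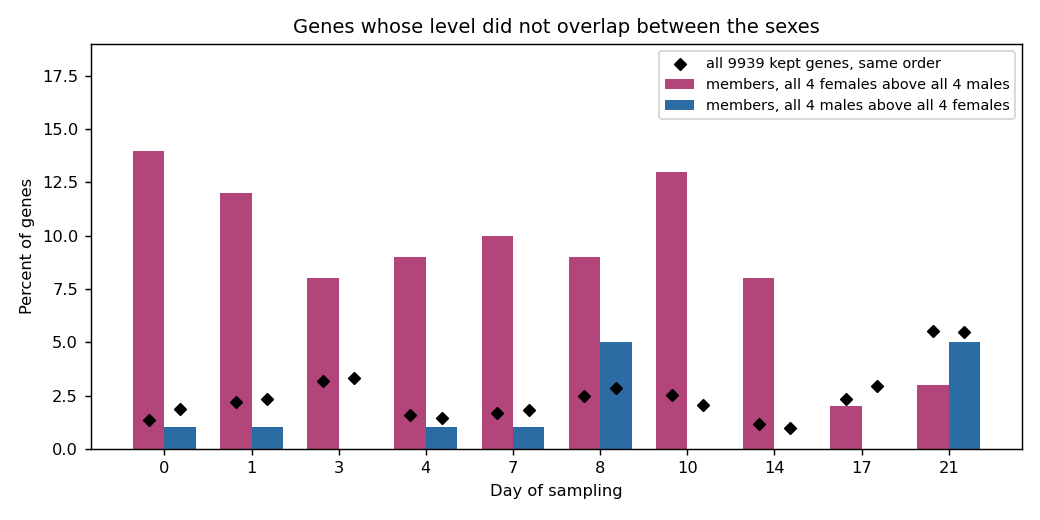
Percent of the 100 members in which all 4 females were above all 4 males (purple bars) or all 4 males above all 4 females (blue bars) in centred log2 level on each of the 10 days, with diamonds for the same percent of all 9939 kept genes. Purple bars run from 8 to 14 through day 14 and stand at 2 and 3 on days 17 and 21.

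The change from day 0 was not shown to differ between the sexes. With 1 summed later library per animal, edgeR called 0 of the 100 members for the interaction of sex and period and 0% of all genes. Deeper libraries weigh more in these sums. Of those above 40 M counts, the 3 of day 8 were male and 3 of the 4 of day 10 were female. DESeq2 on the same sums also called 0 members, as did limma on each animal's mean log2 change, which weighs the 9 days equally. In edgeR 10 members had an unadjusted p under 0.05, 3 of them with the larger change in females, against 3.01% of all genes. The members' median change was 0.30 in females and 0.40 in males on day 1. Females had 0.76, 0.81 and 0.41 on days 10, 14 and 21, and males had 0.56, 0.76 and 0.61.

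The authors also deposited counts of the same 80 libraries under 35432 identifiers of rhesus type. Applied there, the rule kept 9953 genes and 250 passed. For 74 members that table held an entry with nearly the same values in every library (a correlation of at least 0.98 and a level difference of at most 0.5). Both tables come from the same libraries, and the other 26 members had no entry within those limits.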

How the data were processed

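Whole-blood RNA of 80 samples (8 animals, 10 days) was sequenced in bulk. Per the labels' protocols, RNA was extracted with the RNAdvance Blood kit and mRNA libraries were made with KAPA HyperPrep reagents. The authors deposited raw counts per gene, whole numbers that are not normalized. The aligner, the counter, its strand setting and the build were not given in the sources used here, so reads shared between near-identical or overlapping genes may split between identifiers. The days 3 and 7 samples carry the preceding dose in the labels, which do not say whether blood was taken before that day's dose.

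Members came from the rule given above, with a pseudocount of 1. The members, gene lists and tests were chosen with earlier results of these data known. The genes printed are the 2 members with the largest smallest change and the 2 others with the largest called fall at a step. Gene lists needed symbols and were not used.

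Steps between days were tested with edgeR 4.0.16 in R 4.3.3 (quasi-likelihood test, filterByExpr by day, TMM factors over 80 libraries, animal as block), each on the 16 libraries of its 2 days, with Benjamini-Hochberg adjustment over 16054 genes. Sex was tested on the 8 day 0 libraries and, as an interaction, on 16 libraries summed per animal before and after dosing. Alternatives were DESeq2 1.42.0, limma 3.58.1, library totals, no low-count filter, no animal block, 1 fit over 80 libraries, each animal left out, and common tag or depth only. Leaving out the day 4 library of animal 39102 was added after seeing the data. The rule and the step fits were tested on simulated data.

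Each animal keeps its number on all days in the labels, and this pairs the samples. Deviations from day means had a median correlation over genes of 0.58 between days of 1 animal (lowest -0.44) and -0.08 between animals, and 80 of 80 libraries correlated best with their own animal. Between libraries of a day chi-square was at least 27.7 per degree of freedom, so none was a repeat within counting noise.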

Additional observations from a re-analysis of the deposited data

Results flagged for a closer look

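Levels of the 4 members printed by identifier and of the members' animal medians were screened for single animals apart from the other 7, in 49 groups of 8 values. A gap above 0.526 of the whole range marks an animal, which chance gives in about 5% of groups, and 3 groups were marked.

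ENSMFAG00000044266 on day 21 was highest in male 39100, at a centred log2 level of 1.68 with the next animal at -0.20 and a gap of 0.531 of the range. ENSMFAG00000040130 on day 17 was highest in female 39098, at 3.82 with the next animal at 1.89 and a gap of 0.561 of the range. ENSMFAG00000055348 on day 0 was highest in female 39098, at -1.95 with the next animal at -3.17 and a gap of 0.536 of the range.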

How the results depend on the processing

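The number of genes passing the rule was 153 with no centring, 380 with a minimum change of 0.10 and 74 with one of 0.25, and it ran from 175 to 260 as each animal was left out. The other 6 settings of the rule moved it by less than 1.5 times, between 189 and 272. Without the animal block (the pairing), called members were 0 for day 3 against day 1, 0 for day 7 against 4, 0 for day 8 against 7, 0 for day 10 against 8 and 11 for day 17 against 14, and the other 3 steps kept their count of 0. Of all 16054 genes these fits called 25, 204, 700, 274 and 1889, and 0, 98 and 0 at the other 3 steps. With DESeq2 called members were 11, 1, 6, 16, 6, 11, 35 and 1 over the 8 steps in order of time, and 10 for sex at day 0. Of all genes DESeq2 called 1828, 245, 1526, 4543, 3514, 1847, 4916 and 11 over the steps. For sex at day 0 it called 98 of all genes higher in females and 45 lower. With library totals called members were 0 for day 7 against 4, 25 for day 10 against 8, 2 for day 14 against 10 and 11 for day 17 against 14. The same fits called 308, 2981, 643 and 5947 of all genes. Without the low-count filter called members were 14 for day 3 against 1, 1 for day 7 against 4, 2 for day 10 against 8, 3 for day 14 against 10 and 1 for sex at day 0. Of the 29580 genes then tested, 1632, 551, 1521 and 518 were called at these steps. For sex at day 0, 3 were called higher in females and 14 lower. With 1 fit over 80 libraries called members were 1 for day 3 against 1, 1 for day 7 against 4, 13 for day 8 against 7, 7 for day 10 against 8 and 8 for day 14 against 10. That fit called 551, 2132, 5413, 3785 and 2161 of all genes. With the common tag alone called members were 0 for day 7 against 4, 0 for day 8 against 7, 5 for day 10 against 8 and 5 for day 17 against 14. Of all genes 195, 144, 1394 and 1001 were called there. Without animals with a library above 40 M counts called members were 1 for day 7 against 4 and 36 for day 8 against 7, with 291 and 2943 of all genes. All these counts take both directions together, except those of all genes for sex at day 0. As each animal was left out, counts of members ran over the 8 steps in order of time from 3 to 9, 0 to 2, 0 to 3, 0 to 13, 0 to 3, 0 to 10, 0 to 22 and 0 to 0, from 0 to 1 for sex at day 0 and from 0 to 0 for the sex difference in change. Over the first 4 steps, the fits called 241 to 1805, 0 to 183, 128 to 1129 and 144 to 2744 of all genes. Over the last 4 they called 78 to 2600, 32 to 696, 0 to 3611 and 0 to 3. Fits with fewer animals have fewer degrees of freedom. For the other settings the cause was not tested.

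The 3 called differences of single genes kept their direction in all 43 alternatives run and missed the threshold in 20 of them. Left out in turn, the animals gave 0.62 to 0.83 for ENSMFAG00000040130 from day 7 to day 8, -1.83 to -1.26 for ENSMFAG00000038721 and -1.51 to -0.96 for ENSMFAG00000055348 from day 14 to day 17. Day 10 against day 8 without deep libraries (1 animal left) and day 14 against day 10 with the common tag alone (0 animals left) were not run. Depth is above 17 M counts in all libraries, and the members under 10 CPM rest on the fewest counts.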
